A study of Mus musculus with 9 samples.

Results

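The genes of the cytosolic ribosomal proteins were examined in 9 RNA-seq libraries of mouse neural stem cells, which renew themselves and give rise to neurons and glia. Members were the rows of the deposited table named Rpl or Rps with a number and at most a short suffix, together with Rplp0, Rplp1, Rplp2 and Rpsa, without Rpl10l and without names ending in ps. The rule found 83 rows of 25965, of which 48 encode large subunit proteins, 32 small subunit proteins and 3 the acidic stalk. Of these, 81 passed the filter on low values (log2 level no lower than 0 in 3 or more libraries, met by 14044 rows), and all 81 met that level in every library. The other two were Rpl39l, which had 0 reads in each library, and Rpl3l, which had 44 reads over the 9 libraries.

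The cells came from C57BL/6 embryos at E14.5 that carried floxed Smchd1 alleles (fl/fl). Smchd1 encodes a chromatin protein needed for silencing of genes on the inactive X and in some autosomal clusters. Lines were split, per the labels: 1 part received the retrovirus MSCV-Cre-puro, puromycin from 24 h and harvest on day 7 (del/del), and the other part stayed untransduced (fl/fl), so that genotype is not the only difference: virus and puromycin differ too. There were 4 del/del libraries (female 1, 2 and 3 and male 5) and 5 fl/fl libraries (female 1, 2 and 3 and male 5 and 7), and the numbers name the lines. The labels give no clone or animal count per line. The design text of the series calls all cells female and the controls del/fl; the labels of the samples were followed.

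Ribosomal proteins form the small and the large subunit of the cytosolic ribosome together with the ribosomal RNAs. Their mRNAs are abundant in dividing cells, and most begin with a run of pyrimidines, the 5′ terminal oligopyrimidine motif, through which their translation is controlled together. Mammalian genomes hold many processed pseudogenes of these genes, intronless copies made from spliced mRNA. A read that lies within a stretch shared by a gene and a copy cannot be placed by its sequence alone. This holds across an exon junction too, since the copy holds the exons joined. A read in an intron, or over bases that differ, can carry information on its place.

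The extent of shared sequence was read from GENCODE vM21, whose build is that of the authors' table (mm10). Of the 81 rows, 80 shared at least 1 stretch of 50 coding bases with an annotated pseudogene, and 28 shared every such stretch. In all, 1103 pseudogenes shared a stretch with a member, and 134 of them had a row of their own in the deposited table. Coding stretches of 90 bases across an exon junction show this, for 3 members that were lower in some of the libraries (below) and for 1 that was not. Each is printed 5′ to 3′ from the reference transcript. Capitals mark the last and the first base at the junction in the gene, and in the pseudogene the bases that differ from the gene.
Rps6: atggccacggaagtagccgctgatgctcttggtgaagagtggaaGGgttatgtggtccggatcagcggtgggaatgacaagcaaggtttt
Gm16409: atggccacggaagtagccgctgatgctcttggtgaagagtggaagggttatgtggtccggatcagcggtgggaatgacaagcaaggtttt
Rps13: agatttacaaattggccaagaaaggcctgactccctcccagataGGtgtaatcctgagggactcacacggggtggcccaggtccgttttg
Rps13-ps1: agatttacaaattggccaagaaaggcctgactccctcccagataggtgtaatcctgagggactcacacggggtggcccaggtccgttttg
Rpl23a: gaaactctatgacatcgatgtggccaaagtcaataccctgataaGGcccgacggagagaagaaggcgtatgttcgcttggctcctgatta
Gm10132: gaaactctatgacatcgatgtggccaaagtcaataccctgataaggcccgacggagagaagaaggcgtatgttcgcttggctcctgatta
Rps3: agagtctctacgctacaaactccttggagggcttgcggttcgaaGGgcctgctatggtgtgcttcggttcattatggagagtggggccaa
Gm8130: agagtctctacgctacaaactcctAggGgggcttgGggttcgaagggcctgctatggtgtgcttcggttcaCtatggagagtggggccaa

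Rps6 lies on the minus strand at chr4:86854660-86857412 (mm10) and its stretch joins exons 2 and 3 of 5. The processed pseudogene Gm16409 at chr14:73796544-73797290 was identical to it in 90 of 90 bases. The Rps13 stretch joins exons 3 and 4 of 6 (gene in GENCODE at chr7:116331505-116334195), and Rps13-ps1 at chr8:87047689-87048226 was identical in 90 bases. The Rpl23a stretch joins exons 3 and 4 of 5 (chr11:78180932-78183584), and Gm10132 at chr14:77251847-77252314 was again identical in 90 bases. For Rps3 (chr7:99477896-99483738, exons 4 and 5 of 7), the only pseudogene with a shared 50-base stretch, Gm8130 at chr16:23050282-23050851, differed at 4 of 90 bases. Over the whole coding sequence the share of 50-base stretches found in a pseudogene was 100% for Rps6, Rps13 and Rpl23a and 8.09% for Rps3.

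RefSeq windows around the annotated start (GRCm38.p6) were given for 63 members. A C followed by at least 5 pyrimidines, beginning within 5 bases of the start on the gene's strand, was present in 26 of the 63 (41.3%) and in 11.9% of all genes with a window. The Rps6 window from 40 bases before to 20 bases after the start (chr4:86857348-86857407, minus strand) shows such a run in capitals. That of Rps3 (chr7:99483690-99483749, minus strand) holds none near its annotated start. The Rps13 window, not printed, holds none there either, and Rps13 is, like Rps6, a member that was lower in some of the libraries.
Rps6: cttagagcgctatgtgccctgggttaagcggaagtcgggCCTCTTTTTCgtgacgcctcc
Rps3: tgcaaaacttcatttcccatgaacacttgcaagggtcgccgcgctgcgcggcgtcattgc

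Depth ranged from 24.1 to 116.6 M reads (M, mega), with 34.8% to 53.3% of the reads in listed rows. The targeted gene checked the labels: Smchd1 stood at 5.04 to 5.36 log2 RPM (reads scaled to library size) in the del/del libraries and at 6.16 to 6.81 in the fl/fl libraries. Female fl/fl 2 stood apart, with the lowest depth and the highest share in listed rows. Del/del female 1, fl/fl female 1 and fl/fl male 7 lack the prefix RNA- that the other 6 carry in the library name; the labels do not say what the prefix means. All 12 neural stem cell markers passed the filter, and their summed level was 657 to 1289 RPM. None of 5 fibroblast markers passed it, and Lum had 0 reads, but del/del female 2 stood apart in their summed level, at 12.8 RPM against 1.36 to 2.22 RPM in the other 8 (Col1a1 with 607 and Col1a2 with 671 reads); the part of this in the line 2 values was not tested. The markers Mag, Aif1, Ptprc, Cdh5 and Cldn5 had at most 9 reads in any library, but others of their lists passed the filter. Of 5 microglia markers 3 passed, and the list's summed level was 93.3 to 125.8 RPM. Of 5 oligodendrocyte markers 2 passed (5.54 to 12.9 RPM), and of 4 endothelium markers 1 passed (1.61 to 4.44 RPM). All 6 astrocyte markers passed (168 to 338 RPM), as did 5 of 7 neuron markers (33.0 to 62.2 RPM). In the genotype comparison (below), 3 of the 6 astrocyte markers were called higher in del/del and 0 lower. Of all rows 1.45% were called higher and 0.0997% lower. The part of this in the members' values was not tested.

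Levels of the members were moderate in this table. The median of the 81 rows was between 3.46 and 3.78 log2 RPM in 8 libraries and 4.63 in female fl/fl 2, while the median of all 14044 rows was between 4.10 and 4.46 in the 9 libraries. The members took up 0.349% of the reads in listed rows (median of the 9 libraries), from 0.287% in fl/fl male 7 to 0.475% in fl/fl female 2. Each of the 81 rows rested on at least 147 reads in every library except fl/fl female 2, where the lowest had 107.

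**Figure D1:**
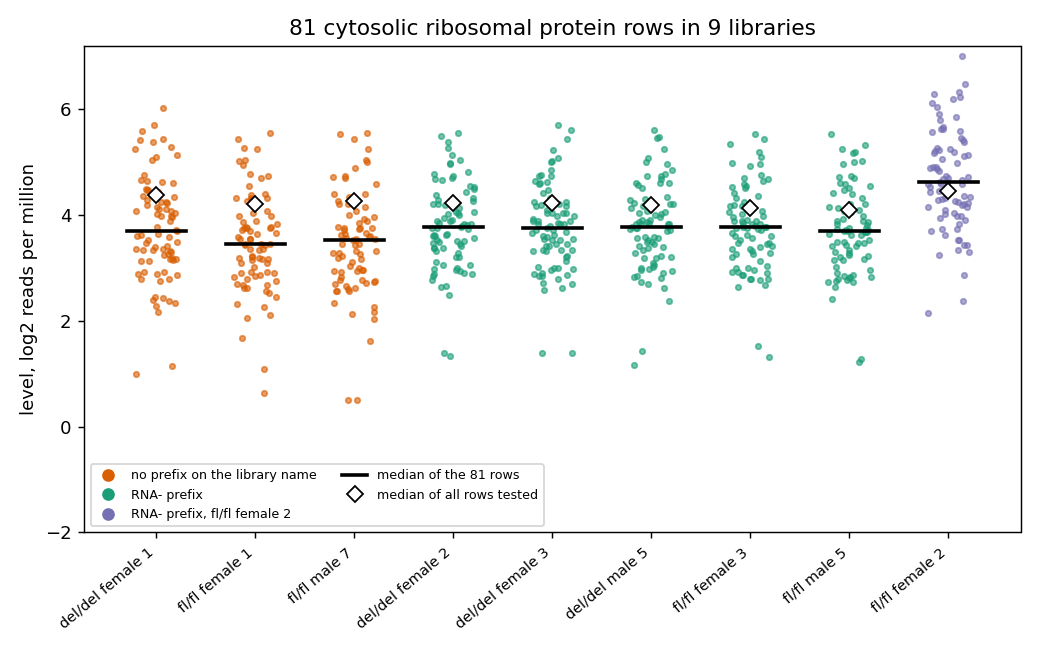
Level (log2 RPM) of each of the 81 rows (points) in each library, with the rows' median (bar) and the median of all 14044 rows tested (diamond); colours give the name prefix. The members' median is 4.63 in fl/fl female 2 and at most 3.78 in the other libraries.

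Per kilobase of mRNA (shortest principal coding transcript), and without fl/fl female 2, the highest level was that of Rpl22, a large subunit protein, at 93.2 ± 7.65 RPM per kb (SD, n = 8 libraries). Rpl24 followed with 63.7 ± 7.09, then Rpl13a with 37.6 ± 3.49, Rps9 with 36.6 ± 3.75 and Rpl41 with 33.9 ± 3.72 RPM per kb. Rpl13a, Rps9 and Rpl41 did not differ beyond their spread. The lowest levels per kb were those of Rps16 (4.87 ± 1.42), Rps20 (5.35 ± 0.310), Rps29 (6.08 ± 1.18), Rps27 (6.23 ± 1.33) and Rpl35 (6.74 ± 1.62), whose spreads overlap. The length taken for Rps20 was 3706 bases, the longest of these. Which bases of a gene were counted is not stated, and 18 members overlap another row (Rpl24 overlaps Pcnp and Rpl13a overlaps Flt3l), so their reads may in part be shared. Strand use in the counting is not given in the sources used here.

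Members that shared little sequence with pseudogenes stood higher per kb. The 15 rows with under 50% shared stretches had a median of 29.1 RPM per kb, the 38 rows with 50% to under 100% had 16.5, and the 28 rows with all stretches shared had 15.9. Across the 81 rows Spearman's rho between the shared share and the level per kb was -0.37. This is a description across genes, which share libraries and are not independent replicates.

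The comparison of del/del with fl/fl cultures asks whether loss of Smchd1, with the retrovirus and puromycin, moved these genes. No member was called: with sex as a covariate, limma with Benjamini-Hochberg adjustment over 14044 rows passed 0 of 81 in either direction, against 1.55% of all rows (1.45% higher, 0.0997% lower). At an unadjusted p under 0.05 the count was also 0 of 81, against 9.84% of all rows, and voom on the recovered reads called 0. The median difference over the members was -0.07 on the log2 scale, with 19 above 0, and that over all rows was -0.00. Without fl/fl female 2 the median was 0.15, with 78 of 81 above 0 (all rows 0.08). Again 0 were called, against 1.62% of all rows (1.52% higher, 0.107% lower). The sign of the median thus depended on fl/fl female 2. In that fit more fl/fl than del/del libraries lacked the prefix, and many members were lower without it (below). The 0.15 therefore does not separate genotype from library set. Within lines, whose libraries share a set, the medians were 0.29 in line 1, 0.02 in line 3 and 0.06 in line 5.

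The largest estimated rises were those of Rpl37a (0.10 ± 0.15, SE), Rpl11 (0.08 ± 0.18), Rpl27 (0.08 ± 0.20), Rpl9 (0.07 ± 0.15) and Rpl24 (0.07 ± 0.13). The largest estimated falls were those of Rpl22l1 (-0.29 ± 0.25), Rpl39 (-0.28 ± 0.26), Rps3 (-0.25 ± 0.29), Rpl36a (-0.24 ± 0.20) and Rpl8 (-0.23 ± 0.32). For each of these 10, the standard error exceeded the estimate or came near to it, and the adjusted p was at least 0.984. Rpl22l1, the paralogue of Rpl22, stood at 3.34, 3.28, 3.46 and 3.19 log2 RPM in del/del female 1, 2 and 3 and male 5. It stood at 3.36, 4.60 and 3.26 in fl/fl female 1, 2 and 3 and at 3.24 and 3.33 in fl/fl male 5 and 7. The groups overlap, and only fl/fl female 2 lies far from the rest. Without that library the estimate for Rpl22l1 was -0.00.

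The same held for members of known roles. Rpl5 and Rpl11, which with 5S RNA bind and inhibit the p53 regulator Mdm2 when ribosome assembly fails, had estimates of -0.15 ± 0.27 and 0.08 ± 0.18. The stalk proteins Rplp0, Rplp1 and Rplp2, which recruit translation factors, had -0.20 ± 0.30, -0.18 ± 0.32 and 0.03 ± 0.15. Rps6, the ribosomal target of S6 kinase, had 0.05 ± 0.48. Rps19, the protein most often affected in Diamond-Blackfan anaemia, had -0.02 ± 0.21, and Rpsa, which also serves as a laminin receptor, had -0.15 ± 0.27. Among the paralogues, Rpl7l1 had -0.10 ± 0.18, Rpl36al had -0.16 ± 0.31 and Rps27l, a p53 target in other cells, had -0.12 ± 0.28. None of these passed the test (adjusted p at least 0.984 in limma).

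The 4 members on the X chromosome, where Smchd1 acts in female cells, were Rpl10, Rpl36a, Rpl39 and Rps4x. Their estimates were 0.02 ± 0.21 for Rpl10, -0.24 ± 0.20 for Rpl36a, -0.28 ± 0.26 for Rpl39 and -0.13 ± 0.24 for Rps4x. Rps4x stood at 4.60, 4.50 and 4.41 log2 RPM in del/del female 1, 2 and 3 and at 4.51 in del/del male 5. It stood at 4.32, 5.57 and 4.42 in fl/fl female 1, 2 and 3 and at 4.42 and 4.22 in fl/fl male 5 and 7. The groups overlap for all 4. In females alone (3 against 3), limma called 0 of 81 members, against 0.0142% of all rows, with 0 members at an unadjusted p under 0.05. The median was -0.20 in females and 0.17 in males (74 above 0). The male value rests on 1 del/del library, and fl/fl male 7 lacks the prefix that both libraries of line 5 carry. Within line 5 the median was 0.06. The female median was 0.15 where fl/fl female 2 was left out. The opposite signs thus rest on single libraries, and the sexes cannot be compared by them. With the lines as a block, 0 of 81 were called over both sexes, against 4.0% of all rows (3.77% higher, 0.228% lower). In females the block also called 0, against 2.04% (1.95% higher, 0.0926% lower). Within the 6 libraries with the prefix (defined above) 0 were called, against 1.28% of all rows (1.24% higher, 0.0427% lower).

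Within lines, the sign depended on the line. In line 1 del/del exceeded fl/fl for 77 of 81 members (median 0.29, from -0.29 for Rpl39 to 0.59 for Rps19), and the median over all rows was 0.22. In line 2 del/del was below fl/fl for 81 of 81 (median -0.88, from -1.63 for Rpl8 to -0.24 for Rpl37a; all rows -0.25). In line 3 the members were divided, 46 above and 35 below 0 (median 0.02; all rows 0.10). In line 5, the male line, 63 of 81 were above 0 (median 0.06; all rows 0.08). Line 2 is the line whose fl/fl library is female 2. With median centring, which sets the median of all rows equal between libraries, the medians were 0.11 in line 1, -0.65 in line 2, -0.08 in line 3 and -0.03 in line 5, so lines 3 and 5 turned sign. No member was above 0 in all 4 lines (17.9% of all rows were), and 1 was below 0 in all 4, Rpl36a, with -0.02, -0.75, -0.18 and -0.21 (4.05% of all rows were).

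**Figure D2:**
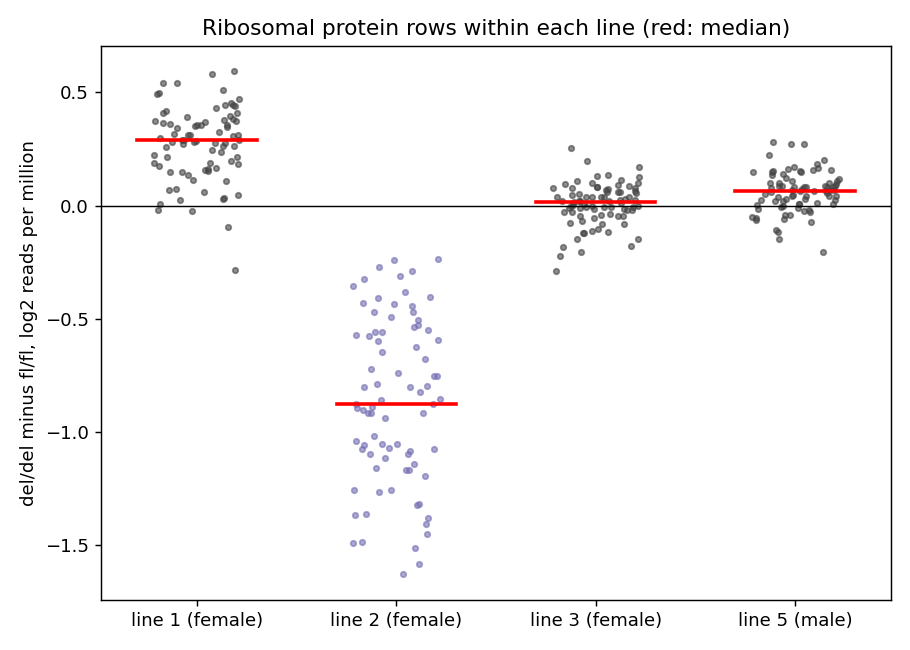
Difference between the del/del and the fl/fl library of each line (log2 RPM) for the 81 rows (points), with the median (red bar). Line 2 lies below 0 for 81 of 81 rows with a median of -0.88; lines 3 and 5 lie around 0.02 and 0.06.

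Over all 9 libraries, del/del lay above fl/fl without overlap for 0 members (5.53% of all rows) and below it for 0 (0.99% of all rows). Leaving out fl/fl female 2, del/del lay above fl/fl without overlap for 5 members (11.0% of all rows) and below it for 0 (1.28% of all rows). The 5 were Rpl22, Rplp0, Rps9, Rps27l and Rpl27a; Rpl27a is named because its values were seen. Rplp0 stood at 4.77, 4.55, 4.60 and 4.61 log2 RPM in del/del female 1, 2 and 3 and male 5. Its fl/fl values were 4.40 and 4.54 in female 1 and 3 and 4.54 and 4.40 in male 5 and 7. The share is below the background, and none of the 5 passed the test.

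Female fl/fl 2 was the highest of the 9 libraries for 80 of 81 members, against 48.9% of all rows; the exception was Rpl24. Against the mean of the other 4 fl/fl libraries, the members were 1.02 higher on the log2 scale at the median (2.03-fold; quartiles 0.75 and 1.30), and 81 of 81 were higher. All rows were 0.28 higher at the median, and 71.4% were higher. With median centring the members' median was 0.74, with 80 of 81 higher, against -0.01 and 49.5% for all rows. Scaled to reads in listed rows it was 0.48, with 77 of 81 higher, against -0.27 and 30.5% for all rows. The small subunit rows stood 1.12 higher and the large subunit rows 0.95 higher. One library has no replicate, so no test was made.

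The smallest difference was that of Rpl24 (0.27) and the largest that of Rps6 (1.86, 3.63-fold). Rpl8, which forms part of the large subunit's catalytic core, stood at 6.33 log2 RPM there, against 4.74, 4.69, 4.70 and 4.74 in fl/fl female 1 and 3 and male 5 and 7. The difference was 1.61. The rows with under 50% shared stretches stood 1.30 higher at the median and those with all stretches shared 0.89 higher. In the same library the summed neural stem cell markers were 1289 RPM against 657 to 935 RPM in the other 8, and the summed astrocyte markers were 338 RPM against 168 to 293 RPM; 11 of 12 and 2 of 6 markers stood higher. Depth was 24.1 M reads against at least 74.0 M. Their part in the result was not tested. In bulk samples fewer cells of a type and less RNA per cell cannot be told apart.

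Related lists stood higher there as well. Other mRNAs with a terminal oligopyrimidine motif were 1.15 higher (18 of 18), rows named as mitochondrial ribosomal proteins 0.53 higher (76 of 77) and ribosome assembly factors 0.67 higher (30 of 32). For rows under 10 kb the median was 0.29 and for rows of 100 kb or more 0.21.

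The 3 libraries without the prefix had lower levels of many members than the other 6. With genotype and sex as covariates, limma with Benjamini-Hochberg adjustment called 6 of 81 members lower (7.41%), against 3.79% of all rows, and 0 higher, against 0.0142% of all rows (3.8% in either direction). All 81 estimates were below 0, with a median of -0.33, whereas the median over all rows was 0.08. At an unadjusted p under 0.05 there were 34 members, against 11.96% of all rows. The 3 libraries span both genotypes and both sexes, but no line has a library in each set, so the set and the lines cannot be told apart. The sets are 2 lines against 3, and libraries of 1 line are not independent, so p-values over libraries are too small. With the libraries of each line averaged to 1 value (chosen after the data were seen, without covariates), limma called 7 members lower, against 3.97% of all rows, and 0 higher, against 0.0% of all rows. That fit called 23 lower without fl/fl female 2, against 5.08%, and 0 higher, against 3.84% (8.91% in either direction).

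Rps6 stood at 3.13 log2 RPM in del/del female 1, 2.83 in fl/fl female 1 and 2.57 in fl/fl male 7. With the prefix it stood at 4.02, 4.04 and 4.02 in del/del female 2, 3 and male 5, at 3.99 and 3.92 in fl/fl female 3 and male 5, and at 5.19 in fl/fl female 2. The sets do not overlap, and the 5 libraries with the prefix other than fl/fl female 2 lie within a narrow band. The difference was -1.38 ± 0.25 (SE), a 2.60-fold lower level, with an adjusted p of 0.0117 in limma. Without fl/fl female 2 it was -1.12 ± 0.09 (adjusted p = 2.97e-05 in limma).

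Rpl6, a large subunit protein, stood at 3.47, 3.17 and 3.11 log2 RPM without the prefix. It stood at 4.19, 4.20, 4.17, 4.18 and 4.10 in the 5 libraries with it and at 5.24 in fl/fl female 2. The difference was -1.12 ± 0.23 (adjusted p = 0.0231 in limma). Rps16, a small subunit protein, stood at 2.17, 1.68 and 1.61 without the prefix, at 2.66, 2.73, 2.69, 2.77 and 2.63 in the 5 libraries and at 3.73 in fl/fl female 2. Its difference was -1.07 ± 0.24 (adjusted p = 0.0379 in limma). For both genes the sets do not overlap.

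Rpl23a, which lies at the exit of the nascent chain tunnel, stood at 2.79, 2.76 and 2.71 without the prefix and at 3.42 to 4.34 with it (difference -0.87 ± 0.19, adjusted p = 0.0391 in limma). Rpl35, which lies beside it at the exit, stood at 2.39, 2.12 and 2.04 without and at 2.85 to 3.70 with the prefix (-0.86 ± 0.19, adjusted p = 0.0344 in limma). Rps13 stood at 2.38, 2.27 and 2.14 without and at 2.79 to 3.44 with the prefix (-0.67 ± 0.15, adjusted p = 0.0468 in limma). Again no library of 1 set reached the other. The rows of Rpl23a and Rpl35 overlap Tlcd1 and Wdr38. Rps23, the remaining gene among the 5 largest estimated falls, had -0.89 ± 0.25 and did not pass (adjusted p = 0.138 in limma).

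**Figure D3:**
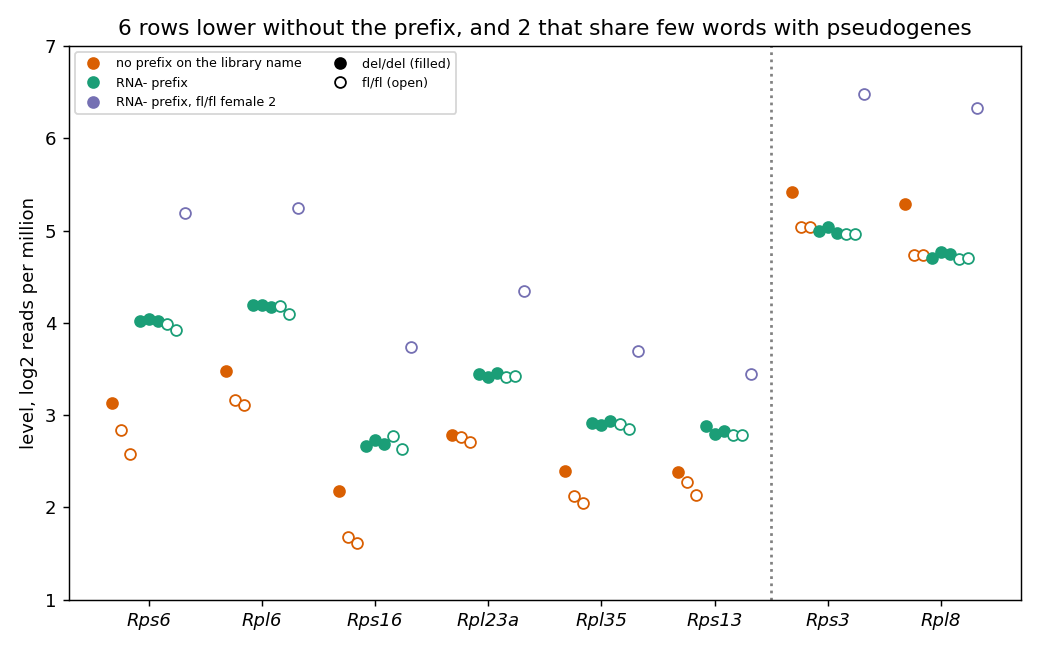
Level (log2 RPM) of the 6 rows called lower without the prefix and, right of the dotted line, of Rps3 and Rpl8, which share under 10% of their coding stretches with pseudogenes. Filled points are del/del and open points fl/fl libraries; colours give the prefix. Rps6 lies between 2.57 and 3.13 without the prefix and at 3.92 or above with it.

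Over all members, the 3 libraries lay below the other 6 without overlap for 35 of 81 (5.56% of all rows) and above them for 0 (4.39% of all rows). Without fl/fl female 2 it was 35 as well (5.6% of all rows). In the test without fl/fl female 2, 31 members were called lower, against 5.43% of all rows, and 0 higher, against 22.0% of all rows (27.4% in either direction). The 31 included Rpl5, Rpl9, Rpl10, Rpl11, Rpl27, Rpl36a, Rps23, Rps27 and Rps29 as well as the 6 above. On this scale the median over all rows was 0.16 and over the members -0.15; with median centring in addition, 38 members were called lower, against 5.98% of all rows, and 0 higher, against 0.135% (6.12% in either direction). Median centring of all 9 libraries gave 24 lower, against 4.81%, and 0 higher, against 0.00712%. The call count rests on single libraries: without fl/fl female 1 or fl/fl male 7 it was 0, and without fl/fl female 2 it was 31.

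The difference varied with the share of coding stretches found in pseudogenes and also with the level. Without fl/fl female 2, all 15 members with under 50% shared stretches had estimates above 0 (median 0.20, from 0.03 to 0.25), and 0 were called lower. In that fit 11848 of all 14044 rows were above 0 (median 0.16) and 5.43% were called lower, so these 15 stood close to all rows. Of the 38 members with 50% to under 100%, 31 were below 0 (median -0.15) and 11 were called lower. Of the 28 with all stretches shared, 24 were below 0 (median -0.32, down to -1.12) and 20 were called lower. Across the 81 members Spearman's rho was -0.68 and Pearson's r -0.64, given as a description of genes that share the same libraries. With fl/fl female 2 rho was -0.57. Between the members' mean log2 level and the difference rho was 0.53, and between that level and the shared share it was -0.35, and the 2 were not separated. The lowest share among the 31 members called lower was 80.6%, that of Rpl35.

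Rps3 stood at 5.42, 5.04 and 5.04 log2 RPM without the prefix and at 4.99, 5.03, 4.97, 4.96 and 4.97 in the 5 libraries with it, and at 6.48 in fl/fl female 2. Its difference was -0.11 ± 0.31 over all 9 libraries and turned to 0.22 ± 0.08 without fl/fl female 2 (adjusted p = 0.0591 in limma). Rpl8 stood at 5.28, 4.74 and 4.74 without and at 4.70, 4.76, 4.75, 4.69 and 4.70 in the 5 libraries with it, and at 6.33 in fl/fl female 2. Its difference likewise turned from -0.11 ± 0.34 to 0.25 ± 0.10 (adjusted p = 0.0769 in limma). Neither passed the test in either fit. Without fl/fl female 2, 3 members lay above without overlap: Rps3, Rps15 and Rps20 (18.9% of all rows). In the fit of all 9 libraries the estimates nearest to 0 were those of Rpl12 (-0.03 ± 0.15), Rpl7l1 (-0.03 ± 0.20), Rps15 (-0.04 ± 0.24), Rpl24 (-0.04 ± 0.14) and Rpl13a (-0.05 ± 0.22). Among them Rpl12 and Rpl24 shared all their stretches with pseudogenes, so that a high share did not always go with a lower level.

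**Figure D4:**
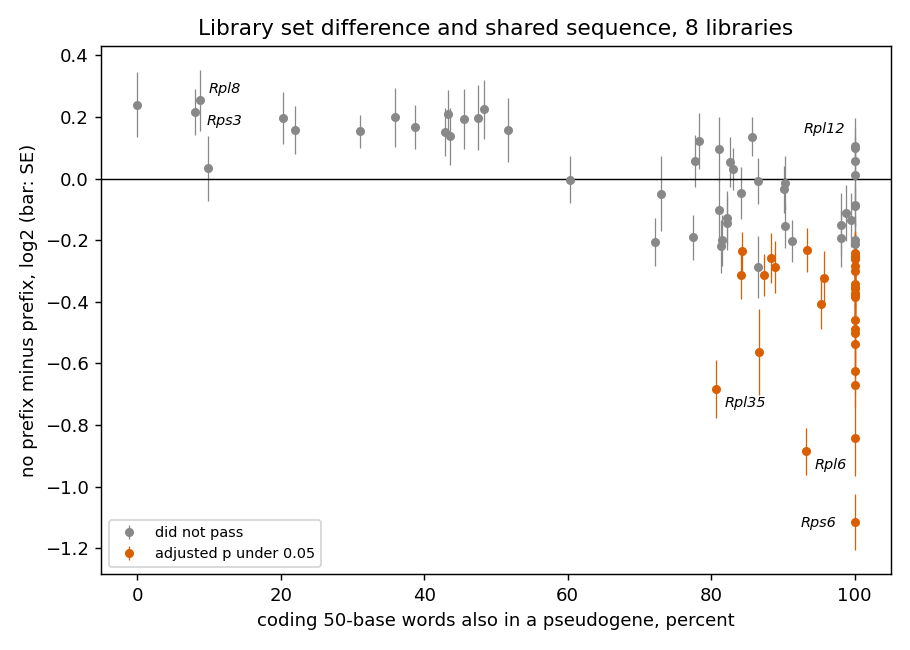
Library set difference (no prefix minus prefix, log2, bars: SE, fl/fl female 2 left out) against the percentage of 50-base coding stretches also found in a pseudogene, for the 81 rows. Rows that passed the test (orange) have shares of 80.6% or more. Rows with under 50% lie above 0, as did 11848 of all 14044 rows tested.

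The pseudogene rows themselves differed far more. Reads in the 134 pseudogene rows, filtered or not, came to 13.1 ± 0.399 per 100 reads in members in the 3 libraries without the prefix (SD, n = 3). They came to 32.9 ± 0.570 per 100 in 5 libraries with it (SD, n = 5) and to 44.1 in fl/fl female 2. The sets did not overlap (exact permutation test over 9 libraries, two-sided p = 0.0238, the smallest that 3 against 6 gave here; 0.0714 after Benjamini-Hochberg adjustment over 12 tests). With 1 value per line the measure was 13.1 and 13.2 in the 2 lines without the prefix and 32.9 to 38.4 in the 3 lines with it, where the exact permutation test cannot go below p = 0.2, the value it gave. Between del/del and fl/fl the same measure was 28.1 ± 9.72 (n = 4) and 27.1 ± 13.7 (n = 5), with p = 0.841 in the exact permutation test. The members' own share of listed reads was 0.300% ± 0.0123 without the prefix (n = 3). It was 0.349% ± 0.00981 in the 5 libraries with it (n = 5, exact permutation p = 0.0357, the smallest possible, 0.0714 adjusted). With 1 value per line, again without fl/fl female 2, the share was 0.287% and 0.306% in the 2 lines without the prefix. It was 0.345% to 0.354% in the 3 lines with it, and the exact permutation test gave p = 0.2, its lowest value.

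Of the 134 rows, 77 passed the filter, which the 6 libraries with the prefix could meet alone, so the rows kept are not a neutral sample. Their median level was -1.51, -1.51 and -1.12 log2 RPM without the prefix (del/del female 1, fl/fl female 1 and fl/fl male 7). It was between 2.00 and 2.04 in 5 libraries with it and 3.47 in fl/fl female 2. Gm16409, the copy of Rps6 shown above, stood at -6.21, -3.70 and -3.15 without the prefix, between 2.49 and 2.61 in the 5 libraries with it and at 3.94 in fl/fl female 2. Rps13-ps1 stood at -4.21, -4.06 and -3.15 without the prefix, between 2.87 and 3.00 in those 5 libraries and at 4.40 in fl/fl female 2. Gm10132, the copy of Rpl23a, stood at 0.13, -0.30 and -0.14 without the prefix, between 3.08 and 3.14 in those 5 libraries and at 4.64 in fl/fl female 2. In the 5 libraries Rps13-ps1 stood near Rps13, Gm10132 somewhat below Rpl23a and Gm16409 well below Rps6. In fl/fl female 2 Rps13-ps1 and Gm10132 stood above their genes (3.44 and 4.34). Without the prefix all 3 copies lay far below their genes.

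**Figure D5:**
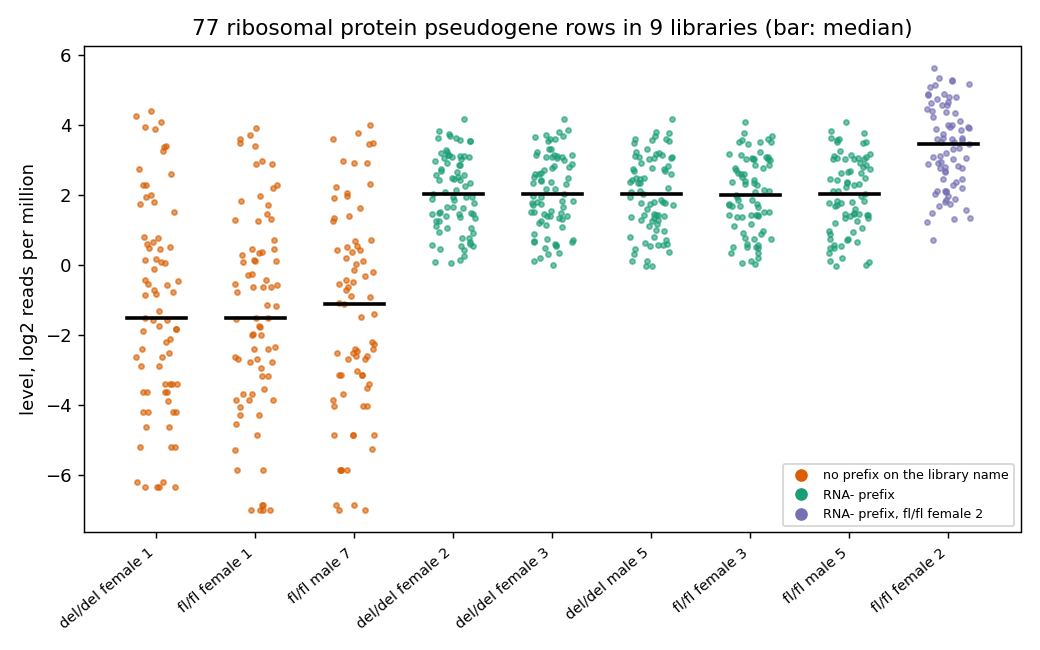
Level (log2 RPM) of the 77 pseudogene rows that passed the filter (points) in each library, with their median (bar). The median is -1.12 or lower in the 3 libraries without the prefix and 2.00 or higher in the 6 libraries with it.

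The reads of its pseudogene rows were also added to each member. The pseudogene rows were themselves far lower without the prefix, so a lower sum was set in advance. It cannot show whether reads moved between a gene and its copies. For the 52 members with such reads, the median difference without fl/fl female 2 was -0.20 for the member alone and -0.45 for the sum. The signed difference was lower for the sum than for the member alone in 48 of 52. For Rps6 the sum differed by -1.73, for Rpl23a by -1.35 and for Rps13 by -1.57. For Rpl12, whose own level hardly differed, the sum differed by -0.15. Of the 77 pseudogene rows kept, 61 were called lower without the prefix, against 3.79% of all 14044 rows, a count that the filter favours. Only 134 of the 1103 pseudogenes that share a stretch have a row, so reads at the others could not be added. The part of read placement in this result was not tested.

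Other lists of the pathway were described in the same fits. Fau, the ribosomal protein S30 fused to a ubiquitin-like protein, was called lower without the prefix (-0.91, adjusted p = 0.0241 in limma) and Gnb2l1, a scaffold protein of the small subunit, was not (-0.11). Of 18 other terminal oligopyrimidine mRNAs, 0 were called (median -0.15), against 3.79% of all rows called lower and 0.0142% higher. Of 77 rows named as mitochondrial ribosomal proteins, whose genes are separate, 2 were called lower (median 0.06). The 77 include Mrps36-ps1, a pseudogene by its name. Of 32 ribosome assembly factors 1 was called lower, Fbl, the methyltransferase of box C/D particles (-0.76, adjusted p = 0.0155 in limma; median of the list 0.05). Leaving out fl/fl female 2, 31 of the mitochondrial ribosomal protein rows were called higher and 4 lower. Mrps36-ps1 was among these 4 (adjusted p = 0.0498 in limma). In that fit 14 assembly factors were called higher and 1 lower, and 1 terminal oligopyrimidine mRNA was called higher and 3 lower. Of all rows 22.0% were called higher and 5.43% lower. In the genotype comparison, 0 members of each of these lists were called, and Myc, which drives ribosome production, had -0.29 (adjusted p = 0.812 in limma). Terminal oligopyrimidine mRNAs had a median of -0.12 and assembly factors of -0.10.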

How the data were processed

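RNA of 9 libraries was sequenced. Per the submitters' processing notes the tools were bcl2fastq, TopHat2 2.0.12 and edgeR 3.8.2 and the build mm10; counter, annotation release and strandedness were not given in the sources used here. As values, the authors deposited log2 RPM per gene row. At least 99.9948% of the values were log2 of whole reads (tolerance 0.05 reads), with 0.9 entered for 0 reads; depth is 24.1 to 116.6 M reads.

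Rows at log2 level 0 or above in 3 or more libraries were tested on the deposited values with limma 3.58.1 (R 4.3.3, trend, two-sided, Benjamini-Hochberg, threshold 0.05), after a test on simulated data. Alternatives were other scalings and filters, log2(RPM + 1), voom, a line block and leaving out each library. Replicates are culture lines; for del/del males, with 1 library, the spread of the other groups was used. Line numbers pair cultures, since the labels say lines were split (r of 0.868, 0.582 and 0.758 between same-line deviations; female del/del 2 correlated more with fl/fl 3, at 0.728, a line of the same prefix set). Pseudogenes were GENCODE vM21 genes of that type, or named ps, that share a 50-base word with a member's coding sequence on either strand, at another place. A few such names are typed protein coding there. Sequences are from GENCODE and RefSeq.

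Named members are those that passed, the 5 largest estimates per direction, the 5 highest and lowest levels, X-linked members, paralogues and members of known roles. Members and lists were chosen with earlier results of these data known. Some items are not reported here.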

Additional observations from a re-analysis of the deposited data

Results flagged for a closer look

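Some values lay farther from the rest of their group than Dixon's test at the 95% level allows. Chance alone puts about 1 in 20 groups past that limit. Here 36 of 80 groups examined were past it, over 3 summary measures and 37 named members that share the same libraries. Many of the 37 were named for their values in these data, such as a lower level without the prefix. The rate of 1 in 20 is therefore no measure for their flags. Among the 5 fl/fl libraries, female 2 was the highest, with a members' median of 4.63 log2 RPM, and likewise for these members, with its level in brackets: Rpl12 (4.87), Rpl13a (6.19), Rpl22 (6.30), Rpl22l1 (4.60), Rpl36al (4.58), Rpl39 (3.83), Rpl41 (5.12), Rpl7l1 (5.85), Rpl8 (6.33), Rplp0 (6.04), Rplp1 (4.72), Rps15 (4.91), Rps19 (4.71), Rps20 (5.21), Rps27l (4.83), Rps3 (6.48), Rps4x (5.57), Rps9 (5.92) and Rpsa (5.60).

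Among the 4 del/del libraries, female 1 is the 1 without the prefix. It held 13.5 reads in pseudogene rows per 100 reads in members, the lowest of the group. It was the lowest library, with its level in brackets, for Rpl23a (2.79), Rpl35 (2.39), Rpl6 (3.47), Rpl9 (3.62), Rps16 (2.17), Rps23 (2.45), Rps29 (1.16) and Rps6 (3.13), and the highest for Rpl13a (5.59), Rpl41 (4.23), Rpl7l1 (5.38), Rpl8 (5.28), Rps27l (3.97), Rps3 (5.42) and Rps9 (5.10). Of the members in which it was highest, all but Rpl41 share under 50% of their coding stretches with pseudogenes.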

How the results depend on the processing

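In the genotype comparison 0 members were called in either direction under every alternative run, over both sexes and in females. The members' median ranged from -0.22 to 0.15 when single libraries were left out, and from -0.44 to 0.15 in females; it was above 0 only where fl/fl female 2 was left out. With the lines as a replicate block (without fl/fl male 7) the median was -0.14 and 0 members were called. In females the block gave -0.20. Chosen after the data were seen, the block without line 2 gave 0.12. The library set difference allows no block, since no line has both sets.

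The count of 6 members lower without the prefix was 24 with median centring, 17 with quantile normalization, 23 when scaled to reads in listed rows, 2 with a level of at least 0 required in all 9 libraries, 3 in the 5 fl/fl libraries alone, 38 without fl/fl female 2 and with median centring, and 7 with 1 value per line (23 without fl/fl female 2); these last 3 were chosen after the data were seen. Leaving out single libraries gave counts from 0 to 31 and medians from -0.47 to -0.15. Rps6 passed in 19 of 21 alternatives (largest adjusted p 0.104), Rpl6 in 17 (0.184), Rps16 in 14 (0.268), Rpl35 in 13 (0.242), Rpl23a in 12 (0.256) and Rps13 in 11 (0.283), by limma. None of these 6 changed sign. With median centring the difference of fl/fl female 2 was 0.74 in place of 1.02. Leaving out rows of the mitochondrial genome did not alter the members' share, as these rows held 0 reads.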
